A study of Mus musculus with 14 samples.

Results

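The 10 genes described here carry or restrain the signal of transforming growth factor beta (TGF-beta): the receptor genes Tgfbr1, Tgfbr2 and Tgfbr3, the signal-carrying SMAD genes Smad2, Smad3 and Smad4, and the inhibitor genes Smad7, Ski, Skil and Smurf2. They were listed by name as parts of the pathway, with earlier results of these data known, and were matched by NCBI Gene number. All 10 were found among the 27179 genes of the deposited count table, and all 10 passed the filter on low counts in each comparison. The libraries held polyadenylated RNA of regulatory T cells (Tregs), a CD4 T cell lineage that is defined by the transcription factor Foxp3 and dampens immune responses. Cells were sorted directly from mice by FoxP3-YFP, a yellow fluorescent reporter, from the spleen and, at the tumor endpoint, from flank tumors grown from the murine colon carcinoma line MC38. All mice carried FoxP3Cre-YFP, a Cre recombinase and reporter driven by Foxp3. In each tissue 4 libraries came from mice with a WT Il23r gene (B6.IL23RWT) and 3 from mice with a loxP-flanked one (B6.IL23RFlox), and the comparison that the series states is Flox against WT within a tissue. Il23r codes for the receptor chain that is specific to the cytokine IL-23, and Cre is meant to delete it only in Foxp3-expressing cells. Age, sex and pooling of mice are not given in the labels, nor whether libraries of a group came from separate mice, so p-values measure the spread between these libraries, which may be technical.

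TGF-beta binds the type II receptor Tgfbr2, which then recruits and activates the type I receptor kinase Tgfbr1. The kinase phosphorylates Smad2 and Smad3, which join Smad4 and regulate genes in the nucleus, while Smad7 and the corepressors Ski and Skil limit that output and are themselves partly induced by it. In Tregs the pathway is known for supporting Foxp3 expression and for programs of tissue residence.

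The libraries held 4859099 to 10333892 counts. Foxp3 lay between 98.3 and 268 CPM, a gene's counts relative to the TMM-scaled total of its library, and Cd3e, a T cell receptor subunit, between 192 and 390 CPM, in all 14 libraries. Il23r itself gave 17 counts in all in the 3 Flox-labelled tumor libraries (4, 7 and 6) and 2 in the 4 WT-labelled ones, which goes against the labels. In spleen it gave 10 against 2 counts, and 9 of the 10 lay in Flox-labelled library 3. The groups are therefore called WT-labelled and Flox-labelled below. The deleted part of the gene is not given in the labels, and counts outside it would check nothing. In each tissue the X-linked Xist was lower and the Y-linked Ddx3y higher in every Flox-labelled than in every WT-labelled library, so genotype and sex cannot be told apart. WT-labelled replicate 2 held both transcripts in both tissues (Xist at 72.4 CPM in spleen and 56.7 in tumor, Ddx3y at 29.2 and 126 CPM), where the other WT-labelled libraries held at most 0.614 CPM of Ddx3y. In bulk RNA, fewer cells of a type and less RNA per cell cannot be told apart either.

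Levels were first ordered within each tissue per kilobase of exon, so that genes of different length could be set side by side. In spleen Smad7 had the highest median of 7 libraries at 56.5 CPM per kilobase (range 14.2 to 72.9), followed by Skil at 25.0 (19.7 to 32.4) and Ski at 15.1 (7.13 to 67.3), with ranges that overlapped. Smurf2, Smad4, Smad3 and Tgfbr2 formed a middle group with medians of 9.06, 8.05, 7.59 and 6.64 CPM per kilobase, and their ranges overlapped. Tgfbr1 (3.48), Smad2 (1.27) and the co-receptor Tgfbr3 (0.859) had the lowest medians. In tumor Smad7 (median 207, range 136 to 284 CPM per kilobase) and Skil (69.6, 36.3 to 90.0) again stood first, and their ranges did not overlap each other. Ski (12.7), Smad4 (5.09), Tgfbr2 (3.32), Smurf2 (2.85), Tgfbr1 (2.07) and Smad2 (1.20) followed, each with a range that overlapped its neighbour's. Smad3 stood ninth at 0.752 CPM per kilobase (0.283 to 1.44), above Tgfbr3 at 0.144 (0 to 0.746), with overlapping ranges. The inhibitor Smad7 thus had the highest median of the 10 in both tissues, and Smad3 moved from the sixth place in spleen to the ninth in tumor.

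**Figure D1:**
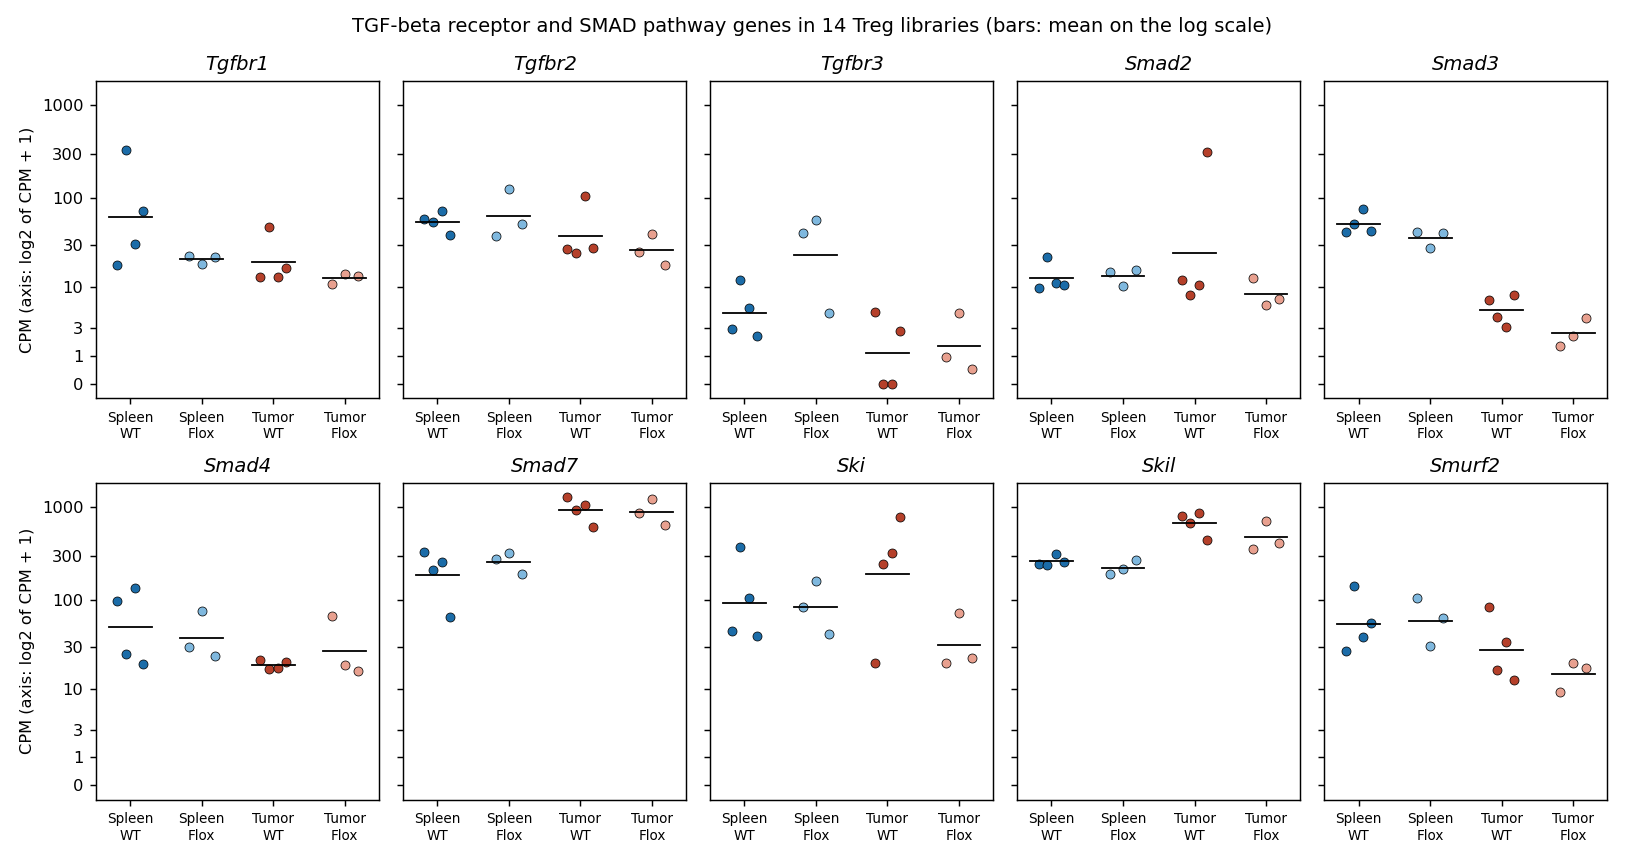
Each panel shows 1 gene, and each point is 1 of the 14 libraries at its TMM-adjusted CPM on an axis of log2(CPM + 1), with a bar at the group's mean on that scale. Smad3, Smad7 and Skil separate spleen from tumor without overlap, and Tgfbr1, Smad2 and Ski each hold single libraries far above the others of their group.

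The tissues were compared over all 14 libraries, 7 against 7, with a term for genotype, which the series does not state as its comparison. In tumor Tregs Smad3 fell 11.2-fold, while Smad7 rose 4.07-fold and Skil 2.46-fold, all against spleen Tregs. These 3 of 10 genes passed edgeR's quasi-likelihood test with Benjamini-Hochberg adjustment at 0.05, beside 22.5% of the 12008 genes tested (12.3% higher and 10.2% lower in tumor). The same 3 were the ones whose tumor and spleen libraries did not overlap, beside 9.39% of all genes. Over the 10 genes 4 log2 fold changes were above 0 and 6 below, with a median of -0.97, where 49.3% of all genes were below 0 with a median of 0.03. Without TMM scaling the median of all genes moved from 0.03 to -0.33 and the calls from 1474 higher and 1225 lower to 1047 higher and 1855 lower. Under that scaling Smad3, Smad7 and Skil passed with log2 fold changes of -3.88, 1.68 and 0.95. In the tumor libraries the summed markers of T cells and Tregs (9 genes) were also higher (4946 to 9522 CPM against 2467 to 3941 in spleen). Of these 9 genes 4 passed higher and none lower, with a median log2 fold change of 0.39. Cd3e had a mean of 267 CPM in tumor and 256 in spleen, and Foxp3 139.6 and 154.5 CPM. Summed B cell markers (10 genes) were lower (49.5 to 310.4 against 454 to 2210 CPM), with Pax5 at 0 counts in all 7 tumor libraries. For CD8 T and NK cells the sum of 8 genes was higher (76.7 to 614 against 11.1 to 45.9 CPM), but of 7 tested genes 2 passed higher (Nkg7 and Prf1) and 2 lower, with a median log2 fold change of -0.09, and Klrb1c was at 0 in all tumor libraries. Of 5 tested fibroblast and endothelial markers 4 passed higher, among them the collagen genes Col1a1 and Col3a1, with a median of 5.51, while the sums of all 8 overlapped (37.6 to 293 against 55.4 to 164 CPM). Of 12 macrophage and monocyte markers 5 passed higher and 2 lower, with sums of 29.8 to 242 CPM in tumor and 196 to 404 in spleen. The part of these cell types in the tissue differences below was not tested.

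**Figure D2:**
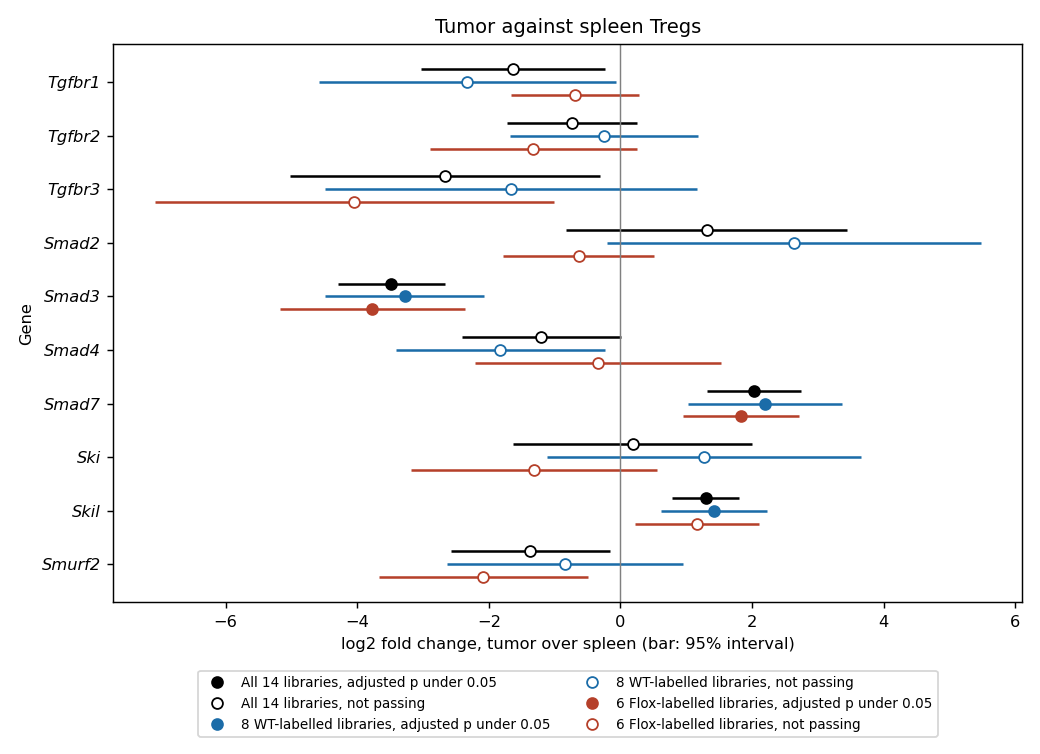
Points are log2 fold changes of tumor over spleen for the 10 genes from all 14 libraries, from the 8 WT-labelled and from the 6 Flox-labelled libraries, with 95% intervals as bars and filled points where the adjusted p was under 0.05. Smad3 lies at -3.48 and Smad7 at 2.03 with filled points in all 3 fits, and Skil is open in the Flox-labelled fit alone.

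Among the receptors, Tgfbr2 (NCBI Gene 21813, chromosome 9, 116087695 to 116175363 in GRCm38) was measured at 58.6, 54.4, 70.9 and 39.5 CPM in the WT-labelled and at 38.1, 124.0 and 52.3 CPM in the Flox-labelled spleen libraries. Tumor values were 27.2, 25.0, 104.4 and 27.9 CPM in the WT-labelled and 25.2, 40.6 and 18.2 CPM in the Flox-labelled libraries. Most tumor libraries lay below most spleen libraries, but WT-labelled tumor library 3 exceeded all but 1 spleen library. The log2 fold change of tumor over spleen was -0.73 ± 0.46 (SE, adjusted p = 0.275), and it did not pass. Without that library it was -1.20 and passed (adjusted p = 0.0334).

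Tgfbr1 (NCBI Gene 21812, chromosome 4, 47353222 to 47414926), the kinase that phosphorylates Smad2 and Smad3, stood at 18.1, 329.7, 31.0 and 72.0 CPM in the WT-labelled spleen libraries. The Flox-labelled spleen libraries held 22.8, 18.3 and 22.0 CPM. The tumor libraries held 13.1, 47.5, 13.1 and 16.8 CPM in the WT-labelled and 10.8, 14.4 and 13.5 CPM in the Flox-labelled group. All but 1 tumor library lay below every spleen library, and replicate 2, which held both Xist and Ddx3y, was the highest WT-labelled library in both tissues. Tumor over spleen gave a log2 fold change of -1.63 ± 0.65 (adjusted p = 0.0871). It was -0.78 without WT-labelled spleen library 2, and DESeq2 called it (adjusted p = 0.0260).

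Tgfbr3 (NCBI Gene 21814, chromosome 5, 107106567 to 107289629), known as betaglycan, presents ligand to Tgfbr2 and has no kinase of its own. It stood at 2.87, 12.1, 5.62 and 2.26 CPM in the WT-labelled and at 41.1, 57.1 and 4.77 CPM in the Flox-labelled spleen libraries. In tumor its values were 4.88, 0, 0 and 2.70 CPM in the WT-labelled and 0.940, 4.72 and 0.450 CPM in the Flox-labelled libraries, where a count of 0 allowed up to 0.323 and 0.422 CPM in the 2 libraries without counts (3 counts, counting error only). This was the lowest level per length of the 10 genes in both tissues, and its libraries overlapped between tissues. Its log2 fold change was -2.67 ± 1.10 (adjusted p = 0.0983). It passed without WT-labelled tumor library 1 (-3.32, adjusted p = 0.0434), with DESeq2 (adjusted p = 0.0246), with limma voom (adjusted p = 0.0112) and without TMM scaling (adjusted p = 0.0465).

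The promoter sequences below show what lies just upstream of the receptor kinase gene, the ligand-binding receptor gene and Smad3, the gene of the 10 that differed most between tissues. SMAD3 and SMAD4 are known to bind the short sequence GTCT, read AGAC on the other strand, and GC-rich sequences such as GGCGC and GGCCG. Each window covers the 250 bases before the annotated start in RefSeq (GRCm38.p6), written 5′ to 3′ on the gene's strand, and capitals mark GTCT, AGAC and the longer CAGACA.

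Tgfbr1 (chr4:47352972-47353221, plus strand): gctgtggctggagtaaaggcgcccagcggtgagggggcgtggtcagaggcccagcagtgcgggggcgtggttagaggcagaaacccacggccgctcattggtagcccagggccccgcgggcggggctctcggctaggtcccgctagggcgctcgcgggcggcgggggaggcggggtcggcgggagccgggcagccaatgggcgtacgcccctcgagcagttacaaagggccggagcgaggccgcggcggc

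Tgfbr1, a second annotated start (chr4:47385966-47386215, plus strand): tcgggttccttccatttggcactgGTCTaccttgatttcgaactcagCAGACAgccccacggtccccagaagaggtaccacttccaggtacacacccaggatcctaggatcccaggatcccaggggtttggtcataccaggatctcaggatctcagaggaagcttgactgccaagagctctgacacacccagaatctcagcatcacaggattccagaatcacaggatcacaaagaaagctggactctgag

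Tgfbr2 (chr9:116175364-116175613, minus strand): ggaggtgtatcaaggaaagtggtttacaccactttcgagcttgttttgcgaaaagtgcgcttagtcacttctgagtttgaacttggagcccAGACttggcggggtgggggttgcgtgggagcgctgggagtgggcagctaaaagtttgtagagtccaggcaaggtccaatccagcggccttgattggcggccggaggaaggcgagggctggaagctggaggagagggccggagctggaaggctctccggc

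Smad3 (chr9:63757995-63758244, minus strand): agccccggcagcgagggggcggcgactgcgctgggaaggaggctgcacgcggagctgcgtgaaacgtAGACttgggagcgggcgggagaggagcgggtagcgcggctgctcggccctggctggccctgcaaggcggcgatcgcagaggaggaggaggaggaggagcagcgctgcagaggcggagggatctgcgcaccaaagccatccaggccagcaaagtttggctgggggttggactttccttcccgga

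The first Tgfbr1 window held no GTCT or AGAC and 7 GC-rich matches, the Tgfbr2 window 1 and 4, and the Smad3 window 1 and 1, counted on both strands. The second Tgfbr1 window held 2 and 0, and 1 of its matches lay inside CAGACA, which was in none of the other 3. No window shown held the palindrome GTCTAGAC. Of 32851 promoters of the same length, 82.9% held GTCT, 43.4% a GC-rich match, 17.1% CAGACA and 0.167% the palindrome. The matches are a description of the letters in these windows. Smad2, Smad4 and Smad7, all on chromosome 18, were left out of this search. Of the other genes, RefSeq promoter windows were matched for 5. Ski and Smurf2 are not shown because GENCODE M21 exons overlap their windows by 57 and 46 bases.

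The signal-carrying SMADs differed from each other. Smad3 (NCBI Gene 17127, chromosome 9, 63646766 to 63757994) was measured at 42.1, 52.4, 76.5 and 43.8 CPM in the WT-labelled and at 42.0, 28.0 and 40.8 CPM in the Flox-labelled spleen libraries. Its tumor values were 7.03, 4.20, 3.10 and 7.97 CPM in the WT-labelled and 1.57, 2.30 and 4.17 CPM in the Flox-labelled libraries. The highest tumor library thus lay below the lowest spleen library, with no exception among the 14. Smad3 fell by 3.48 on the log2 scale (SE 0.38, 95% interval -4.29 to -2.67, adjusted p = 4.33e-05). It also fell within the WT-labelled libraries (-3.28, adjusted p = 0.0114, where 7.1% of 10560 genes passed) and within the Flox-labelled ones (-3.77, adjusted p = 0.0220, where 7.87% of 10760 genes passed).

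Smad2 (NCBI Gene 17126, chromosome 18, 76241090 to 76311748), the other SMAD that the receptor kinase phosphorylates, stood at 9.62, 22.3, 11.2 and 10.7 CPM in the WT-labelled and at 14.9, 10.2 and 15.9 CPM in the Flox-labelled spleen libraries. Tumor Smad2 stood at 12.1, 8.07, 10.6 and 312 CPM in the WT-labelled and at 13.0, 6.12 and 7.21 CPM in the Flox-labelled libraries. Apart from WT-labelled tumor library 4, the ranges of both tissues overlapped. The log2 fold change of tumor over spleen was 1.31 ± 0.99 (adjusted p = 0.377), and without that library it was -0.50. Per kilobase of exon, Smad3 exceeded Smad2 in all 7 spleen libraries, by 3.72 to 10.9 times (median 4.46). In tumor the ratio was under 1 in all 7 libraries, from 0.0405 to 0.920 (median 0.594), so the order of these partners was opposite in every library of the 2 tissues.

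Smad4 (NCBI Gene 17128, chromosome 18, 73634790 to 73703791), the shared partner of Smad2 and Smad3, stood at 95.9, 25.0, 132 and 19.2 CPM in the WT-labelled and at 29.9, 75.4 and 23.7 CPM in the Flox-labelled spleen libraries. In tumor the WT-labelled libraries held 21.7, 17.1, 17.5 and 20.4 CPM, and the Flox-labelled ones 65.5, 18.9 and 16.2 CPM. The spleen libraries were spread more widely than the tumor libraries, of which all but 1 lay close together, and the tissues overlapped. Between tissues the log2 fold change was -1.20 ± 0.56 (adjusted p = 0.143). Without Flox-labelled tumor library 1 it was -1.63 and passed (adjusted p = 0.0381).

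Among the inhibitors, Smad7 (NCBI Gene 17131, chromosome 18, 75367365 to 75395935) blocks the receptors and recruits ubiquitin ligases to them. It stood at 329.5, 207, 256 and 64.3 CPM in the WT-labelled and at 273, 318 and 191 CPM in the Flox-labelled spleen libraries. In the tumor libraries Smad7 stood at 1283, 937, 1053 and 616 CPM in the WT-labelled and at 873, 1229 and 645 CPM in the Flox-labelled libraries. Every tumor library lay above every spleen library, and WT-labelled spleen library 4 was the lowest of all. Smad7 rose by 2.03 ± 0.33 on the log2 scale (95% interval 1.31 to 2.74, adjusted p = 0.000892). It rose within the WT-labelled libraries (2.19, adjusted p = 0.0395) and within the Flox-labelled ones (1.83, adjusted p = 0.0351).

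Skil (NCBI Gene 20482, chromosome 3, 31095058 to 31122923), known as SnoN, is a corepressor that binds SMADs at their target genes. It stood at 243, 237, 314 and 255 CPM in the WT-labelled and at 191, 215 and 265 CPM in the Flox-labelled spleen libraries. In tumor it stood at 801, 675, 872 and 439.7 CPM in the WT-labelled and at 352, 717 and 413 CPM in the Flox-labelled libraries. Every tumor library lay above every spleen library, and within a group the highest Skil library was at most 2.04 times the lowest, the smallest such maximum of the 10 genes. Skil rose by 1.30 ± 0.24 on the log2 scale (95% interval 0.79 to 1.80, adjusted p = 0.00175). It rose within the WT-labelled libraries (1.42, adjusted p = 0.0468), and within the Flox-labelled ones the log2 fold change of 1.16 did not pass (adjusted p = 0.124).

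**Figure D3:**
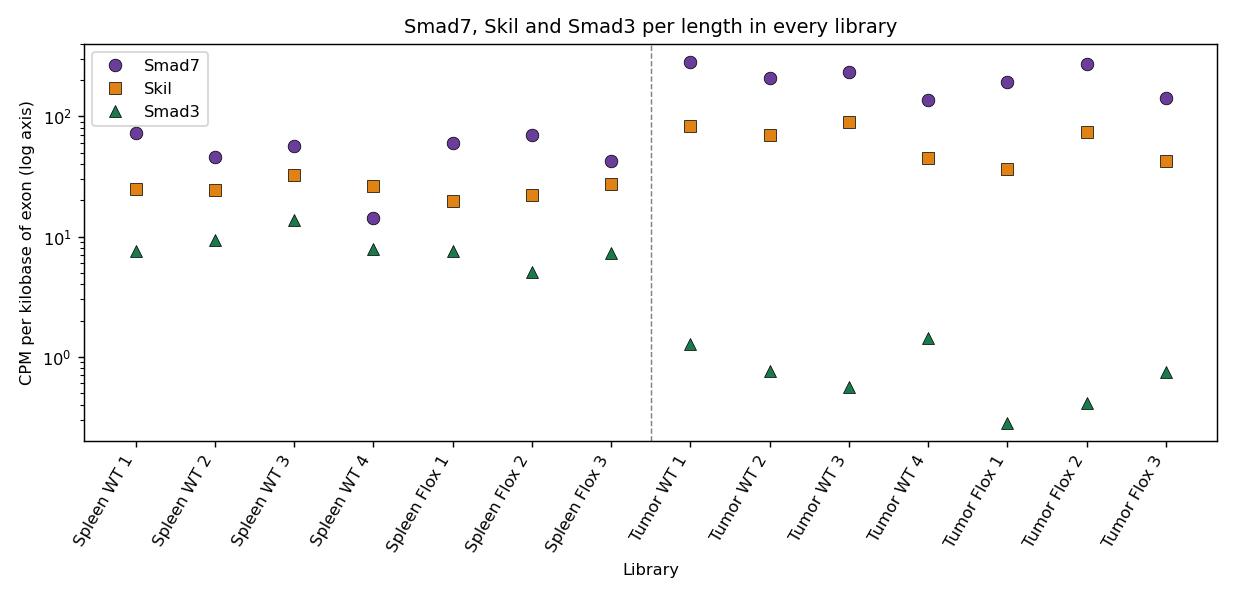
Points are CPM per kilobase of exon, on a log axis, of Smad7, Skil and Smad3 in each of the 14 libraries, with spleen on the left and tumor on the right of the dashed line. Smad7 and Skil are higher and Smad3 is lower in every tumor library than in any spleen library, and the median ratio of Smad7 to Smad3 is 5.73 in spleen and 274 in tumor.

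The contrast between Smad7 and Smad3 was wide within single libraries. Per kilobase of exon, Smad7 exceeded Smad3 by 1.80 to 13.9 times in the 7 spleen libraries (median 5.73). In the 7 tumor libraries it exceeded Smad3 by 94.8 to 683 times (median 274). WT-labelled library 4 had the lowest ratio in both tissues. Smad4 exceeded Smad3 in 4 of 7 spleen libraries (0.654 to 4.02 times) and in 7 of 7 tumor libraries (3.81 to 62.4 times).

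Ski (NCBI Gene 20481, chromosome 4, 155154075 to 155222535), the corepressor related to Skil, stood at 45.7, 374.5, 105 and 39.7 CPM in the WT-labelled and at 83.7, 161 and 41.5 CPM in the Flox-labelled spleen libraries. In tumor it stood at 19.9, 243, 317.5 and 787 CPM in the WT-labelled and at 20.1, 70.5 and 22.5 CPM in the Flox-labelled libraries. The 4 WT-labelled tumor libraries spanned 39.5 times, the widest spread of any of the 10 genes within a group with no library at 0. The log2 fold change of tumor over spleen was 0.18 ± 0.85 (adjusted p = 0.903), with an interval of -1.64 to 2.01 that leaves either direction possible. Its sign changed without WT-labelled tumor library 4 (-0.35) and in the Flox-labelled libraries alone (-1.31).

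Smurf2 (NCBI Gene 66313, chromosome 11, 106820061 to 106920747), a ubiquitin ligase that Smad7 brings to the receptors, stood at 26.9, 139, 38.6 and 55.8 CPM in the WT-labelled and at 103, 31.2 and 63.3 CPM in the Flox-labelled spleen libraries. In tumor it stood at 83.4, 16.4, 34.1 and 12.6 CPM in the WT-labelled and at 9.09, 19.6 and 17.6 CPM in the Flox-labelled libraries. The Flox-labelled tumor libraries all lay below every spleen library, and the WT-labelled ones overlapped with spleen. The log2 fold change was -1.37 ± 0.56 (adjusted p = 0.0965). It passed without WT-labelled tumor library 1 (-1.84, adjusted p = 0.0184), with DESeq2 (adjusted p = 0.0438), with limma voom (adjusted p = 0.0463) and without TMM scaling (adjusted p = 0.0293).

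The comparison that the series states, Flox-labelled against WT-labelled Tregs, was made in tumor over 3 against 4 libraries. None of the 10 genes passed the adjusted threshold, as was so for 0 of the 10777 genes tested (0.0%). At an unadjusted p under 0.05 edgeR's quasi-likelihood test gave 1 of the 10, Ski, beside 871 genes or 8.08%, and DESeq2 called 256 genes at an adjusted p under 0.05. In 8 of the 10 genes the log2 fold change was below 0, with a median of -0.79, where 53.2% of all genes were below 0 with a median of -0.06. No gene of the 10 had groups without overlap, beside 5.0% of all genes. These 3 Flox-labelled libraries also had lower values in 11 of 12 immediate early and heat shock genes (median log2 fold change -0.60, none passing), whose part in the result was not tested. Their summed B cell markers were lower (49.5 to 55.0 against 62.1 to 310.4 CPM) and their summed neutrophil markers higher (13.1 to 168 against 1.83 to 8.01 CPM). Of 6 neutrophil markers only 1 was tested (log2 fold change 0.56, not passing), and Retnlg and Cxcr2 were at 0 counts in all tumor libraries. The highest neutrophil sum was mostly Csf3r, at up to 166 CPM. Of 11 tested macrophage and monocyte markers 8 were higher and 3 lower (median log2 fold change 0.81, none passing). Their sums overlapped (62.8 to 242 against 29.8 to 203 CPM). The part of these B cell, neutrophil and macrophage markers was not tested either.

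Ski had the smallest p of the 10 in tumor. Its log2 fold change was -3.17 ± 1.20 (95% interval -5.97 to -0.37, unadjusted p = 0.0314, adjusted p = 0.584). The Flox-labelled libraries, at 20.1 to 70.5 CPM, lay below 3 of the 4 WT-labelled libraries, and WT-labelled library 1, at 19.9 CPM, lay below them all. DESeq2 called Ski (-3.18, adjusted p = 0.0488), and without WT-labelled library 4 it was -2.37. Smad2 had a log2 fold change of -3.26 ± 1.56 (adjusted p = 0.584), with 1 WT-labelled library at 312 CPM and the other 3 within the Flox-labelled range. Without that library it was -0.23.

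Smad3 in tumor was at 1.57 to 4.17 CPM in the Flox-labelled libraries, against 3.10 to 7.97 CPM in the others, with a log2 fold change of -1.05 ± 0.49 (95% interval -2.20 to 0.10, adjusted p = 0.584). Smurf2 had -1.25 ± 0.79 (adjusted p = 0.640), Tgfbr1 -0.82 ± 0.61 (adjusted p = 0.697) and Tgfbr2 -0.76 ± 0.76 (adjusted p = 0.792). Single libraries carried much of these values: Smurf2 was -0.47 without WT-labelled library 1, Tgfbr1 -0.16 without library 2 and Tgfbr2 0.10 without library 3. Smad4 had 0.80 ± 0.61 (adjusted p = 0.704), and its sign rested on Flox-labelled library 1, without which it was -0.12. For these genes the groups overlapped, and the intervals reached past 0 on both sides.

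The inhibitors that rose in tumor over spleen showed no difference past the threshold by genotype. Smad7 in tumor had a log2 fold change of -0.09 ± 0.40, with a 95% interval of -1.03 to 0.84 (adjusted p = 0.967). Skil had -0.51 ± 0.45, with an interval of -1.57 to 0.55 (adjusted p = 0.756). Changes within these intervals could therefore be present in these libraries. For Tgfbr3, at 0.18 ± 1.50 (adjusted p = 0.985), the interval of -3.31 to 3.67 allowed a change of many-fold in either direction.

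**Figure D4:**
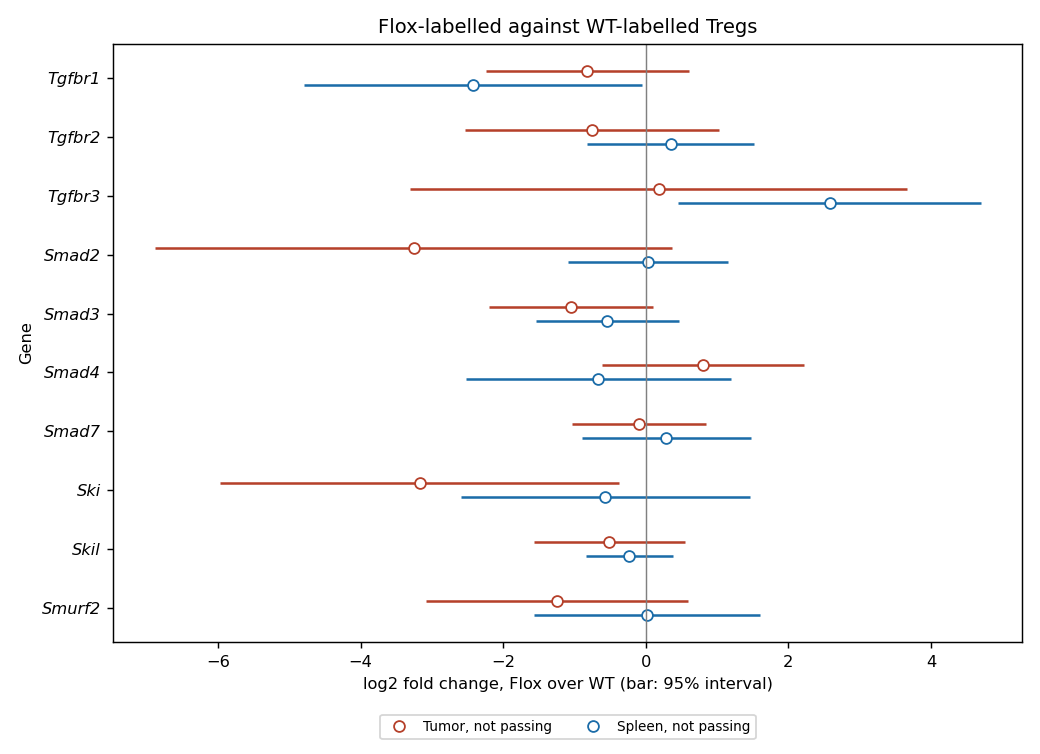
Points are log2 fold changes of Flox-labelled over WT-labelled Tregs for the 10 genes, in tumor and in spleen (3 against 4 libraries each), with 95% intervals as bars. All points are open because none passed at an adjusted p under 0.05, and the intervals are widest for Smad2, Tgfbr3 and Ski in tumor.

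In spleen the same comparison gave 5 genes with log2 fold changes above 0 and 5 below (median -0.10), where 53.7% of all genes were below 0 (median -0.06). None of the 10 passed the adjusted threshold, as none of the 10935 genes tested did (0.0%), and DESeq2 called 124 genes. At an unadjusted p under 0.05 edgeR gave 2 of the 10, Tgfbr1 and Tgfbr3, beside 750 genes or 6.86%. Smad3 alone had groups without overlap, beside 5.88% of all genes.

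Tgfbr3 in spleen was at 41.1 and 57.1 CPM in 2 Flox-labelled libraries and at 4.77 CPM in the other, which lay inside the WT-labelled range of 2.26 to 12.1 CPM. Its log2 fold change was 2.58 ± 0.92 (95% interval 0.46 to 4.70, unadjusted p = 0.0232, adjusted p = 0.674). For Tgfbr1 the value was -2.42 ± 1.02 (unadjusted p = 0.0462, adjusted p = 0.674), with WT-labelled library 2 at 329.7 CPM, and without that library it was -0.97. The signs of the 2 receptor genes were thus opposite, and neither passed.

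Smad3 in spleen was at 28.0, 40.8 and 42.0 CPM in the Flox-labelled libraries and at 42.1 to 76.5 CPM in the WT-labelled ones, so that the closest libraries nearly touched. The log2 fold change was -0.54 ± 0.43 (95% interval -1.54 to 0.46, adjusted p = 0.790). Summed B cell markers in the same libraries were also lower, with sums of 454 to 607 CPM for Flox-labelled and 751 to 2210 CPM for WT-labelled libraries. Immediate early and heat shock genes were lower in 10 of 11 tested (median log2 fold change -0.48, none passing), with sums of 882 to 1009 against 1059 to 1566 CPM. The part of both lists in the result was not tested. The other 7 genes had log2 fold changes from -0.66 (Smad4) to 0.35 (Tgfbr2), with adjusted p of 0.861 to 0.997. Among them Skil had the narrowest interval, -0.84 to 0.38 around -0.23.

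Whether the genotype difference itself differed between tumor and spleen was tested as an interaction over all 14 libraries. None of the 10 genes passed, as none of the 12008 genes tested did (0.0%). The unadjusted p was under 0.05 for 1296 genes (10.8%) and for 0 of the 10, and DESeq2 called 135 genes. The adjusted p of the 10 genes ran from 0.467 for Smad2 (difference -3.31 ± 1.57) to 0.891 for Skil (-0.27 ± 0.49). Ski had -2.61 ± 1.47 (adjusted p = 0.534) and Tgfbr1 1.61 ± 1.21 (adjusted p = 0.654). Without WT-labelled tumor library 4 the difference for Smad2 was -0.25, and without WT-labelled spleen library 2 that for Tgfbr1 was 0.15.

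The remaining genes of the pathway were taken from 4 lists that cover ligands and their activation, other receptors, other SMADs and regulators, and response genes. These lists were chosen with earlier results of these data known, so their counts beside all genes are a description and not a test. In tumor over spleen 5 of 13 tested genes (23 listed) for ligands and their activation passed higher and none lower, beside 12.3% and 10.2% of all genes. Of the 13, 12 had log2 fold changes above 0 and 1 below, with a median of 1.13. Itgav, the alpha V integrin chain that helps release active TGF-beta, rose by 3.21 ± 0.36 (adjusted p = 5.26e-05), from 41.5 to 167 CPM in spleen to 483 to 1727 CPM in tumor. Ltbp4, which anchors latent TGF-beta to matrix, rose by 4.67 ± 0.86 (adjusted p = 0.00187) on 5 counts in spleen and 133 in tumor. Furin, the protease that cleaves the TGF-beta precursor, rose by 1.11 ± 0.32 (adjusted p = 0.0241), which did not pass in 7 of 24 alternatives, with adjusted p from 0.0528 without WT-labelled spleen library 3 to 0.33 in the Flox-labelled libraries alone.

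Of the other receptors 8 of 13 listed were tested, and 3 passed higher and 1 lower, beside 12.3% and 10.2% of all genes. Their log2 fold changes were above 0 in 5 and below in 3 (median 0.88). Acvr1c, a type I receptor also known as ALK7, gave 2246 counts in spleen and 2 in tumor, a ratio of 1183 (95% interval 327 to 9772, counting error only, adjusted p = 0.00193). Its spleen libraries ranged from 0.0780 to 98.1 CPM and overlapped with tumor, at 0 to 0.195 CPM. Bmpr1a, a BMP receptor, rose by 4.93 ± 1.11 (adjusted p = 0.00607), from at most 2.18 CPM in spleen to 6.90 to 443 CPM in tumor, and without Flox-labelled tumor library 1, the highest, it was 3.30. Acvrl1, also known as ALK1, rose by 1.48 ± 0.40 (adjusted p = 0.0156), at no more than 4.10 CPM in any library, and did not pass in 3 of 22 alternatives.

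Of the other SMADs and SMAD regulators 25 of 29 were tested, and 2 passed higher and 2 lower, beside 12.3% and 10.2% of all genes. Their log2 fold changes were above 0 in 13 and below in 12 (median 0.11). Nedd4l, a ubiquitin ligase that acts on SMADs, fell by 4.88 on the log2 scale (SE 0.81, adjusted p = 0.000944). Tab1, an adaptor of the kinase TAK1, fell by 2.91 (SE 0.40, adjusted p = 0.000245), from 18.8 to 88.0 CPM in spleen to 2.42 to 8.02 CPM in tumor. Dab2, an endocytic adaptor that binds SMADs, gave 1 count in spleen and 118 in tumor, a ratio of 112 (95% interval 19.7 to 4463, counting error only, adjusted p = 0.000111).

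Of the TGF-beta response genes 16 of 20 were tested, and 11 passed higher and 3 lower (median 2.02), beside 12.3% and 10.2% of all genes. Id2, an inhibitor of basic helix-loop-helix factors, rose by 2.98 ± 0.20 (adjusted p = 1.61e-06), from 329 to 796 CPM in spleen to 2961 to 6632 CPM in tumor. Ctla2a, a cysteine protease inhibitor, rose by 4.22 ± 0.35 (adjusted p = 5.19e-06), and Ccr8, a chemokine receptor known from tumor Tregs, rose by 3.55 ± 0.42 (adjusted p = 7.34e-05). The 3 response genes that fell, named after their values were seen, were Gpr83 (-5.53 ± 0.81), Myc (-2.27 ± 0.40) and Id3 (-1.89 ± 0.58).

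**Figure D5:**
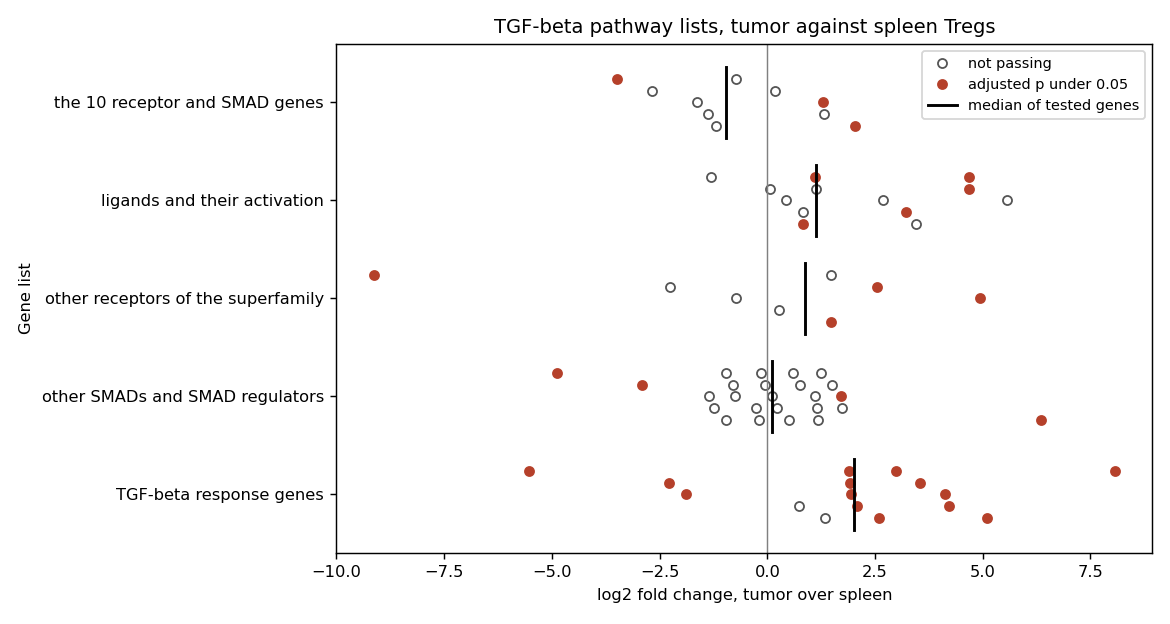
Points are log2 fold changes of tumor over spleen for each tested gene of the 10 and of the 4 pathway lists, filled where the adjusted p was under 0.05, and vertical bars mark list medians. The median of the 10 lies at -0.97 and that of the response genes at 2.02, and each list has genes on both sides of 0.

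By genotype no gene of the 4 lists passed in either tissue. In tumor 19 of 24 other SMADs and regulators had log2 fold changes below 0 (median -0.49), as had 5 of 7 other receptors (median -0.67), 10 of 17 response genes (median -0.14) and 6 of 13 genes for ligands (median 0.75). The smallest p of each list belonged to Smurf1, the ligase related to Smurf2 (4.38 ± 1.11), Thbs1, an activator of latent TGF-beta (4.10 ± 1.25), Bmpr1a (3.62 ± 1.46) and Rgs16 (-1.0 ± 0.54), with adjusted p of 0.584 to 0.595. DESeq2 called Smurf1 (adjusted p = 0.00108) and Thbs1 (adjusted p = 0.0101), and without Flox-labelled tumor library 1 Bmpr1a was at -0.30. In spleen the smallest p belonged to Ltbp1 (-7.45 ± 2.12), Acvr2a (3.31 ± 1.48), Usp4 (1.38 ± 0.53) and Nt5e (0.99 ± 0.38), all with an adjusted p of 0.674. Ltbp1 gave 2 counts in all in the Flox-labelled spleen libraries and 559 in the WT-labelled ones. Of the latter 1 reached 51.2 CPM, beside a group median of 1.65 CPM. Without Flox-labelled spleen library 1 Acvr2a was at -1.36.

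Genes with the most similar pattern over the 14 libraries were sought for Smad3, Smad7 and Tgfbr1, the 3 with the largest tissue difference among those with a mean of 10 CPM or more. The measure was the root mean square difference of centred log2(CPM + 1), over 6578 genes, and all points share the same libraries and depth. Nearest to Smad3 were Foxp1, a forkhead factor (0.70), and Bicdl1 (0.72), where the root mean square of Smad3 itself was 1.69. Both also fell in tumor, Foxp1 by 2.59 and Bicdl1 by 4.83 on the log2 scale. Nearest to Smad7 (1.21) were Eno1b (0.51) and the glycolytic enzyme gene Gpi1 (0.51), which rose by 2.42 and 2.28. Eno1b is a near-identical copy of Eno1, and the sources used here do not give how reads were split between them. Nearest to Tgfbr1 (1.24) were Slc35a3 (0.64) and Mmadhc (0.71), and neither passed between tissues (adjusted p = 0.114 and 0.543).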

How the data were processed

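RNA of sorted FoxP3-YFP Tregs was measured in 14 libraries, grouped by their titles. The labels' protocols name a Qiagen micro kit for extraction and an ultra-low-input library method. Raw, unnormalized gene counts were deposited by the authors in 1 table of 27179 genes. The genome build mm10 is named in the submitters' processing notes, and the sources used here do not give the aligner, counter, annotation or strand setting, so reads of overlapping, antisense or near-identical genes could not be separated.

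Gene numbers were matched to RefSeq symbols (25275 IDs) and GENCODE M21 (18 more), and the 1886 unmatched IDs, with 1.25 to 1.94% of counts, stayed in the tests. Counts were tested with edgeR 4.0.16 under R 4.3.3 (quasi-likelihood F test after TMM scaling and filterByExpr), and p-values were adjusted by the Benjamini-Hochberg method over every gene tested, with 0.05 as the threshold. The libraries of a tissue entered each genotype fit, and all 14 entered the tissue and interaction fits. SE is the absolute log2 fold change divided by the square root of F. CPM were TMM-adjusted over all 14 libraries, and CPM per kilobase used the union of GENCODE M21 exons. With 4859099 to 10333892 counts per library, 3 counts were worth 0.234 to 0.586 CPM, and library pairs within a group differed beyond sampling noise (chi-square per degree of freedom 101 to 444).

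Named genes were all 10 members, up to 3 genes of smallest p from each of 4 pathway lists (1 where none passed), Il23r and Treg genes as checks, and the 2 genes of most similar pattern for 3 members. The members and lists were chosen with earlier results of these data known. Alternatives were DESeq2 1.42.0, limma 3.58.1 voom with quality weights, RLE factors, no filter, 5 CPM in at least 3 libraries, a replicate block, all 14 libraries in 1 fit, 1 genotype only, both WT replicate 2 libraries left out, each library left out and, added after seeing the data, library totals without TMM. The fits were also run on simulated counts that included 50 genes changed 16-fold. Of these, 0 were recovered by genotype in tumor, 14 by genotype in spleen, 39 between tissues and 1 in the interaction. A lack of calls by genotype or in the interaction therefore does not show a lack of change. Figures were drawn with matplotlib 3.10.9.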

Additional observations from a re-analysis of the deposited data

Results flagged for a closer look

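In the groups of 4 WT-labelled libraries, 20 gene and group combinations were examined for a single library far from the other 3. The rule found 4, where chance gives about 1 in 20 for normally distributed values. CPM were used without a log scale, so the share that chance gives here is not known. Tgfbr1 stood at 47.45 CPM in WT-labelled tumor library 2, with the others at 13.1 to 16.8 CPM. Tgfbr2 stood at 104.4 CPM in WT-labelled tumor library 3, with the others at 25.0 to 27.9 CPM. Smad2 stood at 22.32 CPM in WT-labelled spleen library 2, with the others at 9.62 to 11.2 CPM. Smad2 also stood at 311.8 CPM in WT-labelled tumor library 4, with the others at 8.07 to 12.1 CPM.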

How the results depend on the processing

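Smad3 and Smad7 kept their direction and passed in tumor against spleen under all 24 alternatives (log2 fold changes -3.88 to -3.28 and 1.68 to 2.19), and Skil under 23 (0.95 to 1.42), the exception being the Flox-labelled libraries alone (1.16, adjusted p = 0.124). Counts of genes called by genotype were 0 in each tissue, and moved to 256 (DESeq2) and 1 (voom) in tumor and to 124 (DESeq2), 1 (5 CPM filter), 4 (all 14 libraries in 1 fit) and 1 (without WT-labelled replicate 2) in spleen, where leaving out 1 library gave 0 to 1. The interaction gave 135 genes with DESeq2 and 0 to 1 with 1 library left out (1 without Flox-labelled tumor library 1). Tumor against spleen gave 2699 genes, 750 with the WT-labelled libraries alone and 847 with the Flox-labelled alone, where fewer samples entered, and 2357 to 2667 with 1 library left out. The cause of the other shifts was not tested.

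Directions that reversed belonged to genes that did not pass. By genotype in tumor, the lowest and highest values with 1 library left out were -1.15 and 0.10 for Tgfbr2, -1.37 and 0.67 for Tgfbr3 and -0.12 and 1.15 for Smad4. They were -0.39 and 0.13 for Smad7 and -0.30 and 4.37 for Bmpr1a, and Smad7 was 0.037 without TMM. In spleen the lowest and highest such values were -0.29 and 0.65 for Tgfbr2, -0.14 and 0.37 for Smad2 and -0.012 and 0.53 for Smad7. They were -1.16 and 0.56 for Ski, -0.46 and 0.69 for Smurf2 and -1.36 and 3.90 for Acvr2a. Smad2 in spleen was -0.065 without TMM and -0.035 with the 5 CPM filter, and Smurf2 was -0.0038 with DESeq2, -0.0037 with RLE, -0.085 without TMM and -0.054 with the 5 CPM filter. Between tissues Smad2 ran from -0.50 to 1.65 and Ski from -0.35 to 0.62 with 1 library left out. In the Flox-labelled libraries alone Smad2 was -0.63, Ski -1.31 and Mmadhc 0.61, and without TMM Ski was -0.19. The median over all genes moved without TMM from -0.06 to 0.06 by genotype in tumor and from -0.06 to -0.13 in spleen. Of the members' values under alternatives, 702 kept direction and call, 37 reversed, 12 passed where the reported value did not, and 1 was lost. Of the other named genes' calls between tissues, 14 were lost: Furin in 7 alternatives (adjusted p 0.0528 to 0.33), Acvrl1 without TMM (0.0546), without a filter (0.0509) and in WT-labelled libraries alone (0.0772), Acvr1c with voom (0.0527) and in Flox-labelled libraries alone (0.0621), and Bmpr1a (0.0807) and Ccr8 (0.0518) in the latter. DESeq2 gave no adjusted p for 8 values, and the 5 CPM filter removed Smad3 and Tgfbr3 from the tumor comparison.

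Same-numbered libraries deviated with correlations of -0.031 to 0.051 between spleen and tumor and -0.029 to 0.045 between WT and Flox. Of 7 spleen libraries 2 correlated best with their own number, so the main fits did not pair libraries by number. Correlations this near 0 cannot exclude pairing between tissues, and WT-labelled replicate 2 held both Xist and Ddx3y in both tissues. A replicate block was therefore also fitted. With the replicate block, tumor against spleen gave 2050 genes, and both genotype comparisons and the interaction gave 0. Under it Smad3 (adjusted p = 0.00139), Smad7 (0.00139) and Skil (0.0128) passed, and Smad2 (-0.067) and Ski (-0.27) between tissues and Smad7 (-0.020) in spleen changed sign.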

Other observations

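Which library of a group was the highest was counted over the 10 genes after the values were known. With 10 genes over 3 or 4 libraries, some library must be the highest for several. The share over all genes was not computed, so the counts are a description only. Flox-labelled tumor library 2 was the highest of its 3 for 7 of the 10 genes, and WT-labelled spleen library 2 was the highest of its 4 for 5. In the WT-labelled tumor group library 1 was the highest for 4 genes and library 4 for 3. Within the type II and type I receptor pair, Tgfbr2 exceeded Tgfbr1 per kilobase of exon in 5 of 7 spleen libraries (ratios 0.132 to 5.41) and in 6 of 7 tumor libraries (0.420 to 6.37). The corepressor Skil exceeded Ski per kilobase in 5 of 7 spleen libraries (0.363 to 3.69) and in 6 of 7 tumor libraries (0.321 to 23.1).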
